A study of Mus musculus with 20 samples.

Results

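Messenger RNA of the neocortex was compared between 5 old and 5 young control mice, which account for 10 of the 20 arrays of the study. The samples were chosen by their titles, which code age, diet and a mouse number from 1 to 5. The labels give an age of 5 months for the young group and 30 months for the old group. Both consisted of male B6C3F1 mice, an F1 hybrid of the B6 and C3H strains, kept singly in a pathogen-free facility on the control diet. The labels name no transgene and no agent for either group. The other 10 arrays came from 30-month-old mice of the same cross that received tocopherols from 15 months of age. They served here for the estimate of the spread between mice, and they entered the mean signals by which genes and probe sets were chosen. Frozen neocortex was used, so the values are averages over neurons, glia, vessels and adhering membranes, and a smaller number of cells of a type cannot be told apart from less RNA per cell. The comparison has 2 ages, and each mouse had 1 array.

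The ageing cortex keeps most of its neurons, while its glial cells change state. Astrocytes, which clear transmitter and buffer ions, raise intermediate filaments when they become reactive, and microglia, the resident phagocytes, raise lysosomal, complement and antigen-presentation genes when they engulf debris. Neurons switch on immediate early genes for minutes to hours after activity, so their messenger level reflects recent firing as well as the capacity to respond.

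The tissue was checked against marker genes. Slc17a7, the vesicular glutamate transporter of cortical excitatory neurons, had a mean signal of 8606 ± 1096 in young and 13312 ± 1236 in old mice (SD, n = 5 each, as for all means of signals here). Neurod6, a transcription factor of the same neurons, had 2904 ± 194 and 2323 ± 535. Of the list of blood and erythroid genes only 1 member passed the filter on low signals. Transthyretin, encoded by Ttr and made by the choroid plexus, was bright and uneven, with signals of 35367, 34821, 26339, 35131 and 39668 in young mice 1 to 5 and 14076, 44097, 8129, 10254 and 50082 in old mice 1 to 5. Old mice 2 and 5 lay above every young mouse and the other 3 old mice below every young mouse (adjusted p = 0.106, with its calls in other fits given below). Signals of single mice are given in the order of mouse number throughout, and a mouse number does not link a young mouse to an old one.

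One array stood apart from its label. The array of old mouse 5 had a signal of 15067.6 for a probe set of Xist, the RNA that coats the inactive X chromosome of females, while the other 19 arrays of the study lay between 4.20 and 114.3. The other 2 Xist probe sets read 2684.5 and 11558.3 on this array against at most 133.9 and 608.0 on the other 19. The Y-linked genes Eif2s3y, Kdm5d and Uty were also present in old mouse 5, with 2026.6, 669.0 and 473.0 on their brightest probe sets, against ranges of 1520.5 to 2233.7, 515.7 to 714.8 and 270.2 to 577.2 in the other 4 old control mice. A dimmer Kdm5d probe set read 107.4 in old mouse 5, below the 126.2 to 334.0 of the other 19 arrays. These genes were looked at because of their values. The label gives this mouse as male like all others, and why Xist was high on its array was not tested. Without old mouse 5 there were 2505 calls in place of 3039, and 78.1% of the calls kept their direction and their side of the threshold.

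The arrays of the groups also differed as a whole. The deposited signals of every array had the same trimmed mean of 1000, yet the median signal of an array averaged 320.8 ± 6.20 in young and 291.6 ± 12.4 in old mice, with no overlap (exact two-sided permutation test, p = 0.00794, the smallest this design allows; adjusted p = 0.0159 over 4 measures). The mean of 3 probe sets for 18S ribosomal RNA, which carries no poly(A) tail, was 394.4 ± 98.0 in young and 886.6 ± 155 in old mice (exact p = 0.00794, adjusted 0.0159). The ratio of the 3′ to the 5′ probe set of β-actin, a measure of how complete the copied messenger was, averaged 1.52 ± 0.14 in young and 2.04 ± 0.34 in old mice (exact p = 0.0238, adjusted 0.0317), and that of Gapdh 0.874 ± 0.054 and 0.957 ± 0.034 (exact p = 0.0317, adjusted 0.0317). The β-actin ratios of young mouse 4 and old mice 2 and 5 were close, at 1.74, 1.73 and 1.73, and old mouse 3 had the highest at 2.52. The part of these differences in the results below was not tested beyond the fit with β-actin ratio as covariate.

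**Figure D1:**
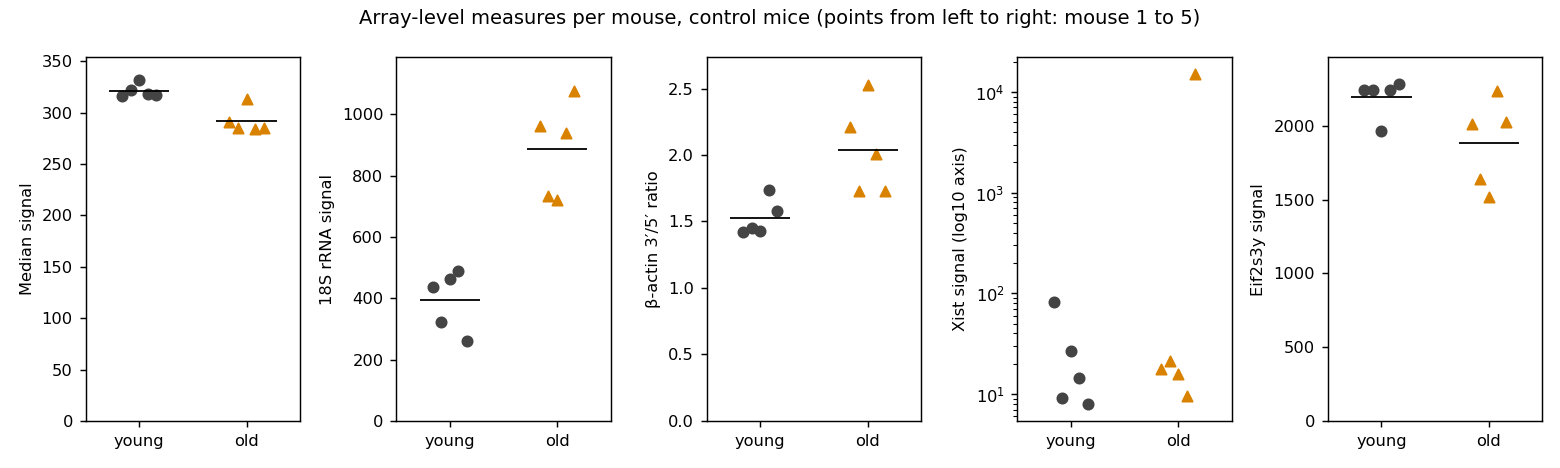
Array-level measures for each mouse, in arbitrary signal units or as ratios, with 1 point for each of the 5 young (circles) and 5 old (triangles) control mice and, except for Xist, a bar at the mean of the group. The median signal and the 18S control separated the groups, the 3′/5′ ratio of β-actin overlapped in part, and Xist was high only on the array of old mouse 5 (log10 axis) while Eif2s3y was present in all mice.

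Of 13351 genes tested, 3039 differed between old and young control mice at an adjusted p under 0.05 (limma, Benjamini-Hochberg over all genes), which is 22.8%. Of these, 1656 were higher in old mice (12.4% of genes tested) and 1383 were lower (10.4%). Differences are given as old minus young on the scale of log2(signal + 16), with the standard error of the limma contrast, and the median over all genes was −0.02. Most changes were small. The median size of a called difference was 0.39, and 55 rises and 32 falls exceeded 2-fold. In 2210 genes the signals of the 5 old and the 5 young mice did not overlap, which is 16.6% of all genes tested, and 1919 of these were among the calls.

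Calls depended on how bright a gene was. When genes were split by mean signal into 4 equal groups, in the brightest group 23.6% rose and 8.78% fell, whereas in the dimmest group 4.22% rose and 8.75% fell. Old arrays thus had a lower median and more rises among bright genes under the same trimmed mean. Quantile and cyclic loess normalization, which make the signal distributions of the arrays alike, gave 2814 and 2823 calls, and setting only the array medians equal gave 3547 calls with a share of rises of 87.8% in place of 54.5% and a median over all genes of 0.11. Both normalizations kept 2337 of the 3039 calls. All 10 fits that left out 1 mouse kept 1807, and 1663 calls (953 rises and 710 falls) were kept by all 12 of these fits. With the β-actin ratio as covariate 1158 genes were called, 1046 of them among the 3039. Each gene named singly below as having risen or fallen kept its call in all 12 fits unless an exception is stated with its name. Counts over a gene list are of calls in the signals as deposited, with the number of these calls kept in all 12 fits in brackets. They stand against 12.4% of all genes higher and 10.4% lower, and a count near these shares is no result about the list. Members and lists were chosen with earlier results of these data known, so a share beyond the background is no test. The choice of probe set, equal array medians and the β-actin covariate are not among the 12 fits. Exceptions by probe set are given with each gene. Setting array medians equal kept all 1656 rises and 431 of the 1383 falls. It ended the calls of 25 genes named below, all of them falls. These include Adarb2, Bdnf, Cdkn1b, Cers6, Cirbp, Cldn5, Col5a1, Ctsk, Dnajb11, Fabp7, Fos, Gclc and Htr3a. They also include Kcnab1, Kcnip1, Kl, Marcks, Ndufs5, Nts, P2ry12, Parp1, Pf4, Slc17a6, Sox11 and Tardbp. The covariate ended the calls of 36 genes named below, which are Adarb2, Apex2, B2m, Cd46, Cirbp, Cldn5, Col5a1, Cp, Ctsk, Dusp14, Ercc2, Fos, Grm8, H2-K1, Herpud1, Hmcn1, Ifitm3, Junb, Kcnab1, Kcnip1, Kcnip4, Kl, Lyz2, Mbp, Nts, P2ry12, Paip2, Pcdh15, Psap, Psma4, Psmb3, Rbfox3, Slc17a6, St8sia1, Tardbp and Timm9.

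**Figure D2:**
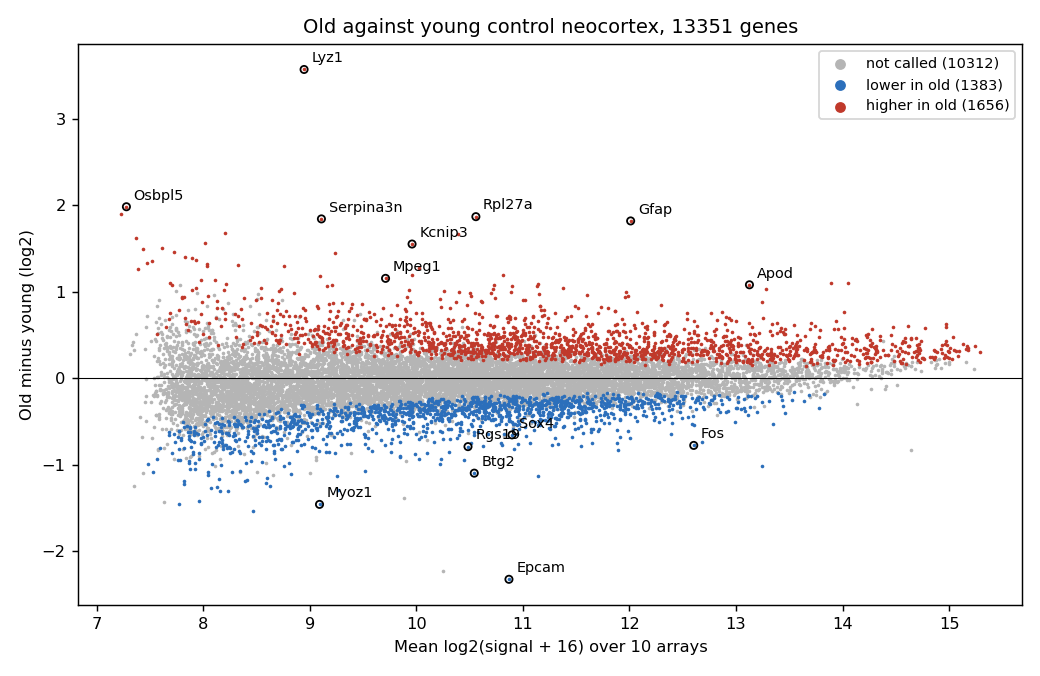
Difference between old and young control mice (log2, old minus young) for each of the 13351 genes tested, against the mean log2 signal over the 10 arrays. Grey points were not called, red points were higher and blue points lower in old mice at an adjusted p under 0.05, and the named genes are labelled. The red points lie mainly at high signals, where 23.6% of the brightest of 4 groups rose.

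Reactive astrocyte genes were among the larger changes. Gfap, the intermediate filament that defines reactive astrocytes, had signals of 2145, 2575, 2457, 1852 and 1971 in young and 6929, 8071, 8336, 7165 and 8272 in old mice. The groups did not overlap, and the difference was 1.82 ± 0.18 (adjusted p = 2.34e-06). Serpina3n, a secreted inhibitor of serine proteases, read 199, 209, 311, 292 and 418 in young and 879.5, 642, 2259, 792 and 1134 in old mice. All old mice exceeded all young mice, by 1.84 ± 0.32 (adjusted p = 4.55e-04). Vim, which forms filaments with Gfap, went from 1180.3 ± 73.1 to 2731 ± 367 (difference 1.19 ± 0.18), and Aspg, an asparaginase, from 159 ± 57.8 to 535 ± 185 (1.68 ± 0.24). The probe set of Vim is marked for cross-hybridisation. Of 20 reactive astrocyte genes tested 10 rose and 1 fell (9 and 0 in all 12 fits), with a median of 0.66 against −0.02 over all genes. With the β-actin covariate 5 rose and 2 fell, with the mean of all probe sets of a gene 7 rose and 1 fell, and the median was 0.34 in both. Without old mouse 3 the median was 0.33, with 9 rises and 2 falls. The 1 that fell was Fabp7, the fatty acid binding protein of radial glia and immature astrocytes, with 4148 ± 361 to 2912 ± 369.6 (−0.51 ± 0.16), and its call was lost in each fit without young mouse 2, 4 or 5 or old mouse 1 or 4 (adjusted p from 0.0507 to 0.0733). Igfbp5, a binding protein for insulin-like growth factors, rose by 0.96 on a probe set marked for possible cross-hybridisation, but its other probe set went the opposite way.

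Called genes of mature astrocyte function were also higher in old mice. Among 25 astrocyte identity genes 13 rose (8 in all 12 fits) and none fell, with a median of 0.28, and 10 rose after quantile normalization. Glul, the glutamine synthetase that converts transmitter glutamate, read 13221, 13614, 12526, 14262 and 10139.5 in young and 19964, 22029, 19033, 22562 and 24941 in old mice. There was no overlap between the groups, and the difference was 0.77 ± 0.11 (adjusted p = 1.28e-04). Atp1b2, an astrocyte subunit of the sodium pump, rose by 0.55 ± 0.09, Slc25a18, a mitochondrial glutamate carrier, by 0.52 ± 0.10, Mfge8, a bridge protein for phagocytosis, by 0.46 ± 0.09, and Aldh1l1, a folate enzyme used as a marker of all astrocytes, by 0.49 ± 0.11. These rises were between 1.37-fold and 1.70-fold.

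Most called genes of microglia and phagocytes were higher in old mice. Lyz1, which encodes a lysozyme, showed the largest difference of all genes, with 183, 222, 123, 82.8 and 77.4 in young and 843, 1526, 4554, 1408 and 1621 in old mice. Every old mouse lay above every young mouse, with old mouse 1 lowest and old mouse 3 highest among the old. The difference was 3.57 ± 0.33 (adjusted p = 9.89e-07). Its probe set is marked for possible cross-hybridisation and the paralog Lyz2 is nearly identical, so the share of each cannot be told apart there. The probe set of Lyz2 itself went from 658 ± 52.0 to 1348 ± 853 (0.84 ± 0.23, adjusted p = 0.0105). Mpeg1, which encodes the pore-forming perforin-2 of macrophages, changed with little spread, from 503, 527, 632, 427 and 675 in young to 1139, 1238, 1271, 1192 and 1339 in old mice. The groups were far apart, and the adjusted p of 9.89e-07 was the lowest together with that of Lyz1 (difference 1.15 ± 0.10).

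Of 29 microglia identity genes 14 rose and 1 fell (9 and 0 in all 12 fits), with a median of 0.28. Tyrobp, the signalling adaptor of microglial surface receptors, rose from 1703 ± 129.7 to 3063 ± 436 (0.83 ± 0.11), Ctss, a cathepsin of antigen-presenting cells, from 5721 ± 141 to 9152 ± 522 (0.67 ± 0.09), and Ly86, a partner of a Toll-like receptor relative, from 1179 ± 79.6 to 1996 ± 284 (0.74 ± 0.11). P2ry12, the purine receptor of surveying microglia, fell from 1690.2, 1765, 1633, 1279 and 1633 in young to 1036, 1381, 925, 1345 and 1365 in old mice, with overlap. The difference was −0.41 ± 0.12, and the call was lost in each fit without young mouse 2 or old mouse 1 or 3 (adjusted p from 0.0505 to 0.0597). Tmem119, another marker of resting microglia, had 1512 ± 116 and 1617 ± 144 (difference 0.09 ± 0.08, adjusted p = 0.429). Of 28 genes of the disease-associated microglia signature, which marks microglia near plaques and degenerating tissue, 16 rose and 1 fell (11 and 1 in all 12 fits). Ccl6, a chemokine, rose by 1.40 ± 0.28, Lgals3, a galectin of activated phagocytes, by 1.36 ± 0.27, Cd52, a small surface glycoprotein, by 1.30 ± 0.20 and Clec7a, a receptor for fungal glucan, by 0.80 ± 0.13. Igf1, a growth factor that belongs to the same signature, fell from 719.8 ± 151 to 450.3 ± 113 (−0.67 ± 0.15), and its call was lost with the mean of its 4 probe sets. Trem2, the receptor that signals through Tyrobp, read 54.7, 90.5, 102, 34.9 and 47.0 in young and 132, 469.9, 102, 377 and 599 in old mice on a probe set marked for cross-hybridisation (1.90 ± 0.47, adjusted p = 0.00621), and its other probe set did not go the same way and its call was lost with the mean of both.

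Markers of border macrophages were called in both directions. Mrc1, the mannose receptor of border macrophages around vessels and in the meninges, read 389.9, 411, 404, 442 and 475 in young and 320.3, 300.3, 261, 247 and 242 in old mice. Every old mouse lay below every young mouse (−0.61 ± 0.14, adjusted p = 0.00443). Pf4, a chemokine of the same cells, had 576 ± 29.1 and 429 ± 74.1 (−0.42 ± 0.15), and its call was lost after both normalizations and in each fit without young mouse 1, 2, 3, 4 or 5 or old mouse 1, 4 or 5 (adjusted p from 0.0539 to 0.111). The list of 7 border macrophage and monocyte genes thus held both lysozymes, which rose, and these falls. Of 4 neutrophil genes 1 fell (0 in all 12 fits) and of 6 genes of T, NK and B cells 2 rose (1 in all 12 fits), against 22.8% of all genes called. Ighm, the heavy chain of immunoglobulin M, was higher by 0.89 on a probe set marked for cross-hybridisation, but 4 of its 11 probe sets went that way and the mean of all went the other way. The call of Ighm was also lost on its brightest unmarked probe set.

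All C1q chains, which start the classical complement cascade and tag synapses for removal, rose. C1qa went from 2833 ± 247 to 5671 ± 666 (0.99 ± 0.12), C1qb from 1332 ± 136 to 2663 ± 247 (0.99 ± 0.18) and C1qc from 1846 ± 160.5 to 3819 ± 501 (1.04 ± 0.12). The adjusted p was 8.66e-06 for C1qa and C1qc. The probe set of C1qb is marked for cross-hybridisation. Cd46, a membrane protein that inactivates complement, fell from 565 ± 67.3 to 378 ± 29.4 (−0.56 ± 0.15). Of 17 complement genes tested 5 rose and 1 fell, all kept in the 12 fits. Antigen presentation genes were called upward in both classes, with 8 of 16 class I genes (7 in all 12 fits) and 5 of 8 class II genes (5 in all 12 fits) higher and none lower. H2-D1, a class I heavy chain, rose by 1.03 ± 0.17 and H2-K1 by 0.91 ± 0.17, both on probe sets marked for cross-hybridisation within this family of near-identical genes, and the call of H2-D1 was lost on its brightest unmarked probe set. B2m, the light chain shared by class I molecules, rose by 0.42 ± 0.11 and Tap2, which carries peptides into the endoplasmic reticulum, by 0.66 ± 0.12. Cd74, the invariant chain of class II, went from 418 ± 60.5 to 781 ± 193 (0.86 ± 0.16). H2-Ab1, a class II chain, rose by 1.30 ± 0.31 on a probe set marked for cross-hybridisation, and its call was lost with the mean of its 3 probe sets.

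Interferon-stimulated genes, which cells switch on in reply to interferons and viral nucleic acid, were higher in part and varied between old mice. Bst2, known as tetherin because it holds budding virus at the cell surface, read 149.5, 60.8, 114, 50 and 178 in young and 302, 435, 566, 172 and 234 in old mice. Old mouse 4 lay just below young mouse 5 and the other old mice above all young mice, and the difference was 1.51 ± 0.30 (adjusted p = 0.00126). Ifitm3, a membrane protein that blocks viral entry, read 1400.1, 1510.1, 1838, 1486 and 1498 in young and 2542, 2569.5, 9178, 2571 and 2455 in old mice, with no overlap and old mouse 3 far above the other old mice (1.08 ± 0.24, adjusted p = 0.003). Of 35 genes on the list 8 rose (7 in all 12 fits) and none fell, with a median of 0.42. After quantile normalization 15 rose, and with β-actin ratio as covariate 1 did. Leaving out 1 mouse gave 7 rises and a median of 0.21 without old mouse 3, 14 rises and 0.50 without old mouse 2, and 12 rises and 0.52 without old mouse 5. Irf7, the factor that amplifies the response, had 341 ± 41.3 and 545 ± 484 (0.35 ± 0.28, adjusted p = 0.392).

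Promoters of the groups that moved were searched on both strands for short motifs, and 1 promoter is shown for each motif, that of the called member with the lowest p that held it. The sequences are RefSeq promoters of build GRCm38.p6, from 250 bases before to 50 after the start of the gene, written 5′ to 3′ on the strand of the gene, with the motif in capitals. The interferon response element core GAAANNGAA was present in all 5 interferon genes that rose and had a promoter in the table, in 11 of 23 that were not called (47.8%), in 8.32% of tested genes and in 8.56% of all promoters. The CLEAR core TCACGTGA, known from lysosomal genes, was present in 3 of 20 risen lysosomal genes (15%), in 4 of 21 that were not called (19%) and in 2.03% of tested genes. The cyclic AMP response element TGACGTCA, known from activity-regulated genes, was present in 1 of 12 fallen immediate early genes (8.33%), in 2 of 19 that were not called (10.5%) and in 3.33% of tested genes. A match is a description of the letters and shows no binding. The Bst2 promoter lies at chr8:71537423-71537722 on the minus strand, where 2 overlapping matches begin at −130 and −124 from the start of the gene. The Ctsd promoter lies at chr7:142387778-142388077 on the minus strand with its match at −99, and the Btg2 promoter at chr1:134079106-134079405 on the minus strand with its match at −166.
Bst2: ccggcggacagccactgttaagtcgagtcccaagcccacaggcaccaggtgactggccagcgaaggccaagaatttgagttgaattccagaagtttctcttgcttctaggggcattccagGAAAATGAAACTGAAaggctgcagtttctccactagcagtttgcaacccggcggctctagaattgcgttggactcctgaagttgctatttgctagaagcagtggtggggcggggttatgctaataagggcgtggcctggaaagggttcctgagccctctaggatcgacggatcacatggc
Ctsd: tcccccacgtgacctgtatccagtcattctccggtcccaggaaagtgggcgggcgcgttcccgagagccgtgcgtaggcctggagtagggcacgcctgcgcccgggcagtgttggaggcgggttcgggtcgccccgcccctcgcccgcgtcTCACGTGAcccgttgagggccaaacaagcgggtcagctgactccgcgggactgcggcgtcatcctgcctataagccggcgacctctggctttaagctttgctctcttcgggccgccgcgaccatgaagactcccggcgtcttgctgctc
Btg2: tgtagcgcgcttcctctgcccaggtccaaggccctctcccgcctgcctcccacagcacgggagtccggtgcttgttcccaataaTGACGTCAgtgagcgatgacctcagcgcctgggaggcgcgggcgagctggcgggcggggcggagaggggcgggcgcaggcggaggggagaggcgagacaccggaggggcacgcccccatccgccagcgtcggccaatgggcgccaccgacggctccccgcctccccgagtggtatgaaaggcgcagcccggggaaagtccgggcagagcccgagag

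Called lysosomal genes were nearly all higher in old mice. Of 49 tested, 25 rose and 1 fell (13 and 0 in all 12 fits), with a median of 0.23, and 22 members did not overlap between the groups against 16.6% of all genes. Ctsd, the aspartic protease cathepsin D whose promoter is printed above, had 7291, 6185, 6712, 6740.1 and 5705 in young and 10486, 11067, 9637, 10062 and 10374 in old mice. No old mouse reached the range of the young mice, and the difference was 0.66 ± 0.09 (adjusted p = 8.65e-05). Npc2, which hands cholesterol out of the lysosome, read 4092, 3580.0, 3588, 3868 and 3590.2 in young and 6619, 6503, 7934, 6851 and 5978 in old mice. The lowest old mouse lay far above the highest young mouse (0.85 ± 0.10, adjusted p = 7.31e-06). Slc66a1, a transporter that exports basic amino acids from lysosomes, rose from 145 ± 63.3 to 373 ± 54.0 (1.39 ± 0.25). Grn, the precursor of granulins, rose by 0.67 ± 0.10 on a probe set marked for cross-hybridisation, and its brightest unmarked probe set went the other way. Psap, the precursor of the saposins, was higher by 0.23 and lost its call after both normalizations, where quantile normalization turned its sign, with the mean of its probe sets and without young mouse 4 (adjusted p = 0.0511). With quantile normalization 21 lysosomal genes rose and with the β-actin covariate 12. Ctsk, the collagen-cutting cathepsin K, was the 1 that fell (−0.58 ± 0.21), and it lost its call after both normalizations, with the mean of all probe sets and in each fit without young mouse 1, 2, 3 or 5 or old mouse 2, 3 or 5 (adjusted p from 0.0685 to 0.124).

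Genes of mature oligodendrocytes that were called in the signals as deposited were all higher in old mice. Among 37 genes of myelin and mature oligodendrocytes there were 18 rises (11 in all 12 fits) and no fall, with a median of 0.29. After quantile normalization 16 rose and 1 fell, and after cyclic loess 15 rose and 2 fell. Apod, a lipid carrier made by oligodendrocytes and astrocytes, read 5954, 5724, 6588, 6883 and 5616 in young and 11934, 11921, 16073, 13081 and 12317 in old mice. The ranges of the groups were separate (1.08 ± 0.11, adjusted p = 3.56e-06). Plekhb1, a protein of oligodendrocyte and photoreceptor membranes, went from 7201 ± 869 to 13194 ± 891 (0.88 ± 0.10) and Mobp, a structural protein of the major dense line of myelin, from 12444 ± 394 to 19787 ± 2162 (0.66 ± 0.08). Mbp, which compacts myelin, rose by 0.37 ± 0.10 (adjusted p = 0.0106) and lost its call after both normalizations. Olig1, a transcription factor of the lineage, rose from 5592 ± 284 to 8049 ± 448 (0.52 ± 0.06, adjusted p = 8.66e-06). Of 22 precursor genes 6 rose and 3 fell (4 and 2 in all 12 fits). Pcdh15, a cadherin of precursors, fell from 724 ± 100 to 464 ± 88.3 (−0.64 ± 0.15), with its call lost with the mean of its 3 probe sets. Pdgfra, the growth factor receptor that defines precursors, had 1420.0, 874, 1176, 1018 and 1242 in young and 882, 1249, 849.9, 892 and 529.5 in old mice, with overlap (−0.41 ± 0.21, adjusted p = 0.16).

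Several factors of immature neurons and glia fell. Sox4, a transcription factor of newborn neurons and precursors, read 2411, 2268, 2356, 2399 and 2457 in young and 1612, 1434, 1427, 1527 and 1531 in old mice. The groups did not overlap and the difference was −0.65 ± 0.08 (adjusted p = 1.29e-05), and 6 of its 8 probe sets went down. Its relative Sox11 fell from 810.2 ± 85.1 to 585 ± 94.3 (−0.47 ± 0.14) on all 6 probe sets, but lost its call after cyclic loess normalization and without old mouse 5 (adjusted p = 0.0578). Dll1, a ligand of Notch, fell from 1055 ± 91.1 to 729 ± 85.2 (−0.53 ± 0.10), while Hes1, a target of Notch, rose from 508 ± 66.0 to 678 ± 55.7 (0.41 ± 0.10). E2f5, a repressor of the cell cycle, fell from 1931 ± 133 to 1000.1 ± 137 (−0.95 ± 0.12), with its call lost with the mean of its 3 probe sets. Dcx, the doublecortin of migrating neuroblasts, had 1642 ± 193 and 1789 ± 247 (0.12 ± 0.10, adjusted p = 0.396). On the list of 28 postnatal development and neurogenesis genes 4 rose and 7 fell (2 and 3 in all 12 fits), with a median of −0.13, and without old mouse 1 or old mouse 5 there were 4 falls.

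**Figure D3:**
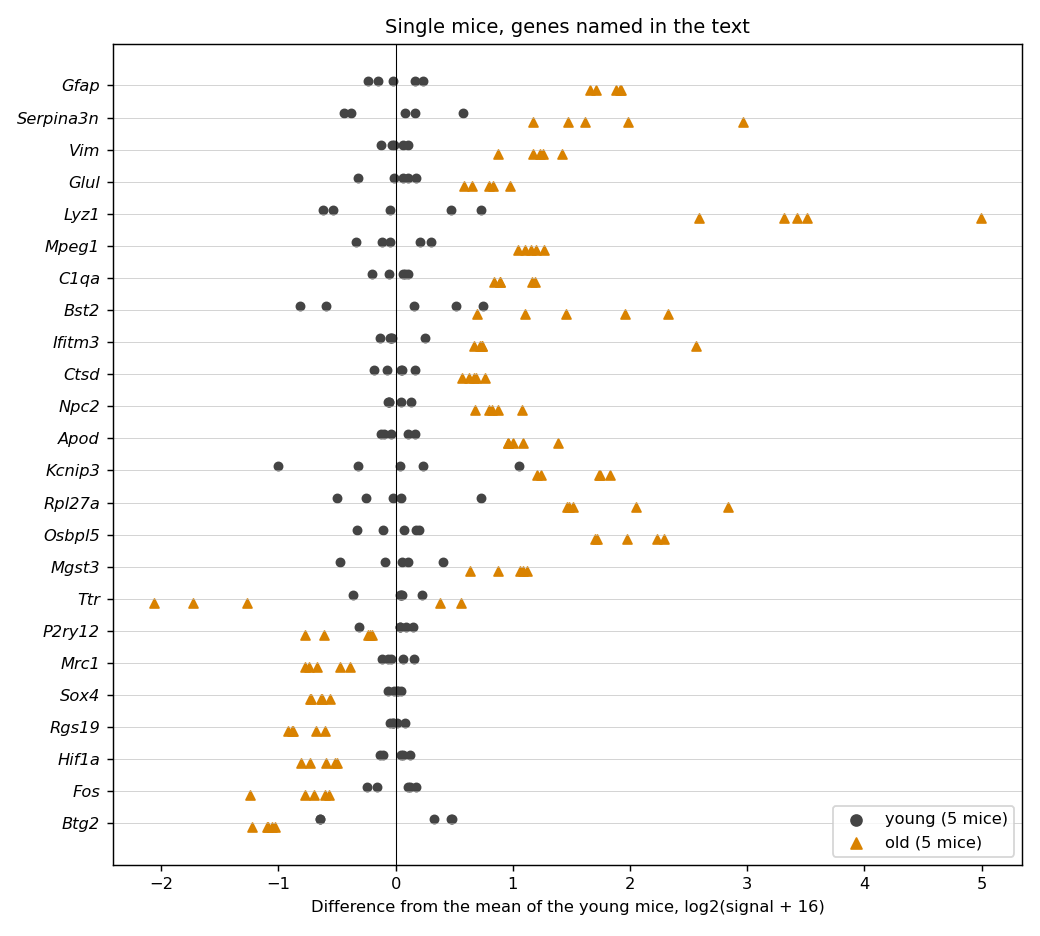
Difference of each mouse from the mean of the 5 young mice (log2 scale, signal + 16) for 24 genes named in the text, with circles for young and triangles for old control mice. Old mice lie to the right of the young mice for Gfap, Serpina3n, Lyz1, Mpeg1, Ctsd, Npc2 and Apod, among others. They lie to the left for Mrc1, Sox4, Rgs19, Hif1a, Fos and Btg2. The groups overlap for Bst2 and P2ry12, and old mice lie on both sides for Ttr.

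Called immediate early genes were nearly all lower in old mice. Of 42 tested 13 fell and 1 rose (6 and 1 in all 12 fits), with a median of −0.23. Without young mouse 2, young mouse 3 or old mouse 3 there were 8 falls. Btg2, an antiproliferative gene that activity and DNA damage induce, read 3019.7, 2727, 3036, 1376 and 1383 in young and 1012, 1056, 1007, 1035 and 919 in old mice. There was no overlap between the groups, and the difference was −1.10 ± 0.21 (adjusted p = 8.67e-04), though its other probe set did not fall and the call was lost with the mean of both. Junb, a partner of Fos in the AP-1 factor, fell from 4151 ± 318 to 2504 ± 489 (−0.75 ± 0.19). Fos read 8738, 9157, 8866, 6868 and 7269 in young and 5023, 4734, 3430.0, 5351 and 5475 in old mice. No old mouse reached the range of the young mice (−0.78 ± 0.24), but the call was lost in each fit without young mouse 2 or old mouse 3 (adjusted p from 0.0539 to 0.0653). Gadd45g, a stress gene linked to DNA demethylation, fell (−0.49 ± 0.12), and so did Dusp14, a phosphatase of stress kinases (−0.67 ± 0.14). Bdnf, the neurotrophin that activity induces, fell from 1266 ± 166 to 976 ± 112 (−0.37 ± 0.10, adjusted p = 0.0137). Others of the class missed the threshold, though Arc was called in the fit of the 10 control arrays. Arc, which acts at active synapses, had 10159, 10172, 12889, 10993 and 11013 in young and 9302, 7824, 6759, 10373 and 10282 in old mice (−0.32 ± 0.23, adjusted p = 0.319), and Egr1 had 22676 ± 2877 and 20684 ± 1943 (−0.13 ± 0.13, adjusted p = 0.502). Mcl1, a survival protein, was the 1 that rose (0.54 ± 0.09), on a probe set marked for cross-hybridisation, and its call was lost on its brightest unmarked probe set. With the β-actin covariate 3 genes of the list fell. With array medians set equal 6 fell, and the median was −0.09.

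Ion channel genes were called in both directions within families. Kcnip3, also known as calsenilin or DREAM, which binds A-type potassium channels and represses transcription, read 275, 579.5, 1191, 451 and 667 in young and 2052, 1329.5, 1359, 1916 and 1928 in old mice. The ranges of the groups were separate (1.55 ± 0.23, adjusted p = 1.14e-04). Its relative Kcnip4 went the other way, from 3981 ± 524 to 2688 ± 632 (−0.59 ± 0.15), and Kcnip1, which interneurons use, fell from 2397 ± 181 to 1735 ± 352 (−0.48 ± 0.14) but lost its call with the mean of its 4 probe sets and without old mouse 5 (adjusted p = 0.0574). Hcn2, a channel of the hyperpolarisation-activated current, went from 855 ± 147 to 1736 ± 231 (1.01 ± 0.18). Kcnab2, an auxiliary subunit, rose by 0.66 ± 0.10 and its relative Kcnab1 fell (−0.28 ± 0.06). Kcnh2, a channel of the ether-a-go-go family, rose by 0.48 ± 0.10. Of 46 potassium channel genes 8 rose and 4 fell (7 and 2 in all 12 fits) with a median of 0.02. These were 17.4% and 8.7%, against 12.4% and 10.4% of all genes. Of 12 sodium channel genes 5 rose (3 in all 12 fits) and none fell, among them the auxiliary subunits Scn2b (0.39 ± 0.07) and Scn4b (0.46 ± 0.10).

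Synaptic genes moved by small amounts. Of 43 presynaptic genes 15 rose and 1 fell (7 and 0 in all 12 fits), with a median of 0.15, and after quantile normalization 8 rose, 1 fell and the median was 0.05. Slc17a7 rose by 0.63 ± 0.12 (adjusted p = 7.22e-04), Dnm1, the dynamin that pinches vesicles from the membrane, by 0.59 ± 0.08 and Unc13a, which primes vesicles, by 0.39 ± 0.08. Slc17a6, the transporter that thalamic and subcortical neurons use in place of Slc17a7, fell from 1628 ± 242 to 1171 ± 337 (−0.50 ± 0.16) and lost its call in each fit without young mouse 1 or 2 or old mouse 1, 3 or 5 (adjusted p from 0.0557 to 0.0673). On the postsynaptic side 6 of 49 genes rose and 3 fell (3 and 1 in all 12 fits). These were 12.2% and 6.12%, against 12.4% and 10.4% of all genes. Dlgap2, a scaffold of the postsynaptic density, rose by 0.78 ± 0.13, Grm3, a metabotropic glutamate receptor, by 0.48 ± 0.08, and Grm8, another, fell (−0.48 ± 0.13). Gria1, an AMPA receptor subunit, had a difference of −0.04 ± 0.08 (adjusted p = 0.724) and Homer1 of −0.02 ± 0.08 (adjusted p = 0.895). Camk2a, the kinase of synaptic plasticity, had 18473 ± 2359 and 25548 ± 7645 (adjusted p = 0.0554).

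Genes of inhibitory neurons were called in both directions, 7 of 35 higher and 4 lower (4 and 2 in all 12 fits, and 2 lower without young mouse 5 or old mouse 5). These were 20% and 11.4%, against 12.4% and 10.4% of all genes. Pvalb, the calcium buffer of fast-spiking interneurons, rose from 5171 ± 352 to 6419.5 ± 742 (0.31 ± 0.08). Htr3a, a serotonin receptor of another interneuron class, fell from 936 ± 98.2 to 719.9 ± 96.9 (−0.38 ± 0.11), and Adarb2, a marker of that class, from 1119.6 ± 79.5 to 909.7 ± 86.7 (−0.30 ± 0.08). Gad1, which makes GABA, had 21007 ± 992 and 21059.7 ± 1598 (adjusted p = 0.988) in the signals as deposited, but was called after both normalizations. The peptides Sst, Npy, Vip and Cck had adjusted p of 0.961, 0.769, 0.18 and 0.984, and Vip was called without old mouse 1. The difference between the classes was not tested. Of 39 neuropeptide and granin genes 5 rose and 1 fell (2 and 1 in all 12 fits), with 3 rises without young mouse 3, young mouse 5, old mouse 2 or old mouse 3. The shares were 12.8% and 2.56%, against the same background. Nts, neurotensin, fell from 1628 ± 245 to 1036 ± 384 (−0.70 ± 0.20), and Pam, the enzyme that amidates peptides, rose from 494 ± 97.9 to 858 ± 158 (0.78 ± 0.16). General neuronal markers gave 8 rises of 22 in the signals as deposited (1 in all 12 fits, and 5 without young mouse 3, young mouse 5 or old mouse 5), and 3 rises and 3 falls after quantile normalization, with medians of 0.13 and −0.07. Celf4, an RNA-binding protein of excitatory neurons, rose by 0.44 ± 0.07. Rbfox3, which encodes the neuronal nuclear antigen, was higher by 0.25 ± 0.07 and lost its call after both normalizations, and its other 2 probe sets went down, with the mean turned in sign.

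Ribosomal protein genes were the list with the highest share of rises. Of 44 tested 29 rose and 1 fell (10 and 0 in all 12 fits), with a median of 0.30. These genes are bright, and the count moved with the scaling: 11 rose and 1 fell after quantile normalization with a median of 0.08, 14 rose and none fell after cyclic loess with a median of 0.14, and 8 rose with the β-actin covariate. Rpl27a, a large subunit protein, read 645, 543, 802, 762 and 1290.0 in young and 2237, 2179.5, 2159, 3249 and 5624 in old mice. The groups did not overlap (1.87 ± 0.31, adjusted p = 3.28e-04), and the means of the 30-month-old α-tocopherol and mixture groups were 2447 and 1078. Rpf2, an assembly factor of the large subunit, read 737, 942, 580.0, 396 and 1350.1 in young and 1708, 1569, 1966, 2553 and 5556 in old mice, with a wide spread in the old (1.66 ± 0.33) and its call lost with the mean of its 4 probe sets, and the means of the other old groups were 1795 and 715. Rpsa, a small subunit protein, rose by 0.64 ± 0.11, Fau, a ubiquitin-like fusion that yields a small subunit protein, by 0.48 ± 0.08 and Rps3 by 0.43 ± 0.08. For Rps3 2 of 3 probe sets went this way, and the mean of all 3 turned the sign (−0.11). Of 38 translation factors 14 rose and 1 fell (6 and 0 in all 12 fits), and 6 rose after quantile normalization and 9 without old mouse 3. Eef1d, an exchange factor of elongation, rose from 1739 ± 402 to 3052 ± 234 (0.83 ± 0.15) and Eif3l, an initiation subunit, by 0.43 ± 0.09, and other probe sets of both went down: with the mean of all probe sets the call of Eef1d was lost and the sign of Eif3l turned. Paip2, which restrains poly(A)-binding protein, rose by 0.33 ± 0.08.

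**Figure D4:**
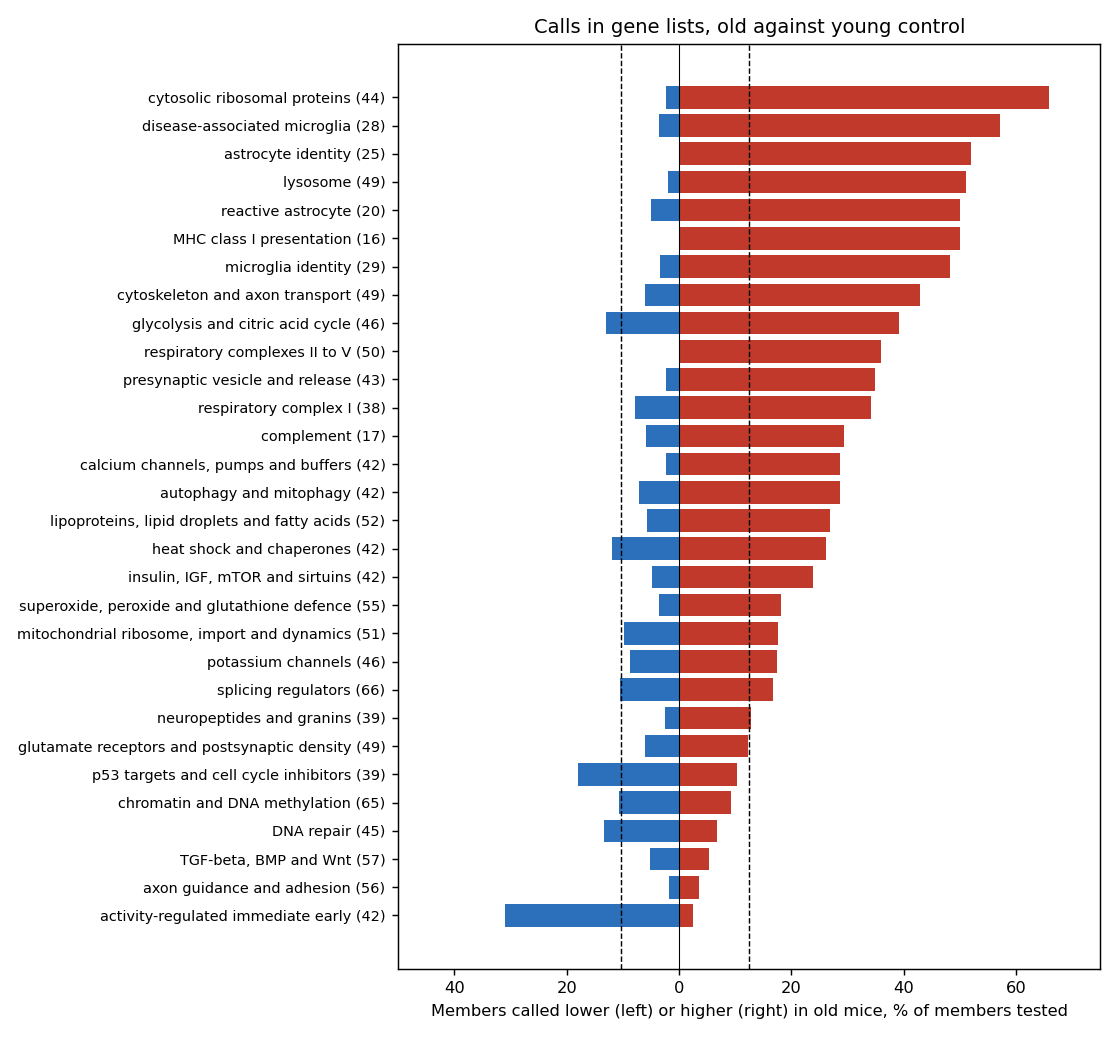
Number of members called higher (red, to the right) and lower (blue, to the left) in old mice, as a percentage of the members tested, for 30 gene lists with their size in brackets. Dashed lines mark the background over all genes tested, 12.4% higher and 10.4% lower. Ribosomal protein, astrocyte, microglia and lysosome lists lie beyond the line on the right and the immediate early list on the left. The astrocyte, microglia, complement and class I lists were put in by name, and the rest are the largest of the other lists. Lists were chosen with earlier results of these data known, so a share beyond a line is no test.

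Called cytoskeleton genes were mostly higher in the signals as deposited. Of 49 tested 21 rose and 3 fell (7 and 3 in all 12 fits, and 13 rises without old mouse 5) with a median of 0.16, and after quantile normalization 9 rose and 4 fell with a median of 0.01. Pfn1, profilin that feeds actin monomers to growing filaments, read 1595, 1643, 1744, 1394 and 581 in young and 2609.9, 2759, 2721, 3004 and 2633 in old mice. There was no overlap between the groups (1.07 ± 0.21, adjusted p = 0.00119). Tuba4a, an α-tubulin, rose by 0.43 ± 0.07 and Cfl1, cofilin that cuts actin filaments, by 0.45 ± 0.08. The call of Tuba4a was lost with the mean of its 3 probe sets, and that of Cfl1, on a probe set marked for cross-hybridisation, on the unmarked one. Clasp2, which stabilises microtubule ends, rose from 6144 ± 557 to 9919.6 ± 645 (0.69 ± 0.07, adjusted p = 5.24e-06) on all 5 probe sets. Marcks, which anchors actin to membranes, fell from 6412 ± 233 to 5251 ± 395 (−0.29 ± 0.06). Neurofilament genes did not pass the test, with differences of 0.12 ± 0.06 for Nefl, 0.00 ± 0.07 for Nefm and −0.28 ± 0.12 for Nefh (adjusted p = 0.143, 0.969 and 0.104). Among 10 clustered protocadherins, adhesion molecules that give a neuron its surface identity, Pcdhb9 read 1261, 1462, 1224, 1315 and 1391 in young and 2452, 2329, 2046, 2226 and 1998 in old mice. The groups were well apart (0.72 ± 0.07, adjusted p = 2.34e-06).

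Many energy genes rose in the signals as deposited, but the medians of the respiratory lists turned below 0 after quantile normalization. Of 50 genes of respiratory complexes II to V 18 rose (5 in all 12 fits) and none fell (median 0.12), and after quantile normalization 5 rose and 5 fell (median −0.02). Of 38 complex I genes 13 rose and 3 fell (8 and 1 in all 12 fits), and after quantile normalization 8 rose and 4 fell (medians 0.09 and −0.04). Members that kept their calls went both ways. Ndufb7 rose from 7705 ± 865 to 12444 ± 828 (0.70 ± 0.12), Ndufv2 by 0.49 ± 0.09 and Ndufv1 by 0.40 ± 0.08, all 3 complex I subunits, and Ndufs5 of the same complex fell (−0.26 ± 0.07). Atp5d, of the ATP synthase, rose by 0.45 ± 0.08 on a probe set marked for cross-hybridisation. Sdha, of succinate dehydrogenase, was higher by 0.41 ± 0.07 on a marked probe set, but 2 of its 4 probe sets went this way, the mean of all turned the sign (−0.25) and the call was lost on the brightest unmarked one. Glycolysis and the citric acid cycle had 18 rises and 6 falls of 46 (7 and 5 in all 12 fits), against 10 and 11 after quantile normalization. Tpi1, a glycolytic isomerase, rose by 0.48 ± 0.08 and Pdk2, which inhibits pyruvate dehydrogenase, from 1690.1 ± 422 to 2589.6 ± 399 (0.63 ± 0.12). Pfkfb3, which makes the activator of phosphofructokinase, read 1188, 1169.7, 1299, 1612 and 1471 in young and 840.1, 950.0, 885, 811 and 857 in old mice. No old mouse reached the range of the young mice (−0.62 ± 0.14). In the mitochondrial import list Timm9 fell from 1884 ± 245 to 1147 ± 291 (−0.74 ± 0.16) and so did Mrpl18, of the mitochondrial ribosome (−0.46 ± 0.09), while Mrpl12 of the same ribosome rose by 0.44 ± 0.10.

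**Figure D5:**
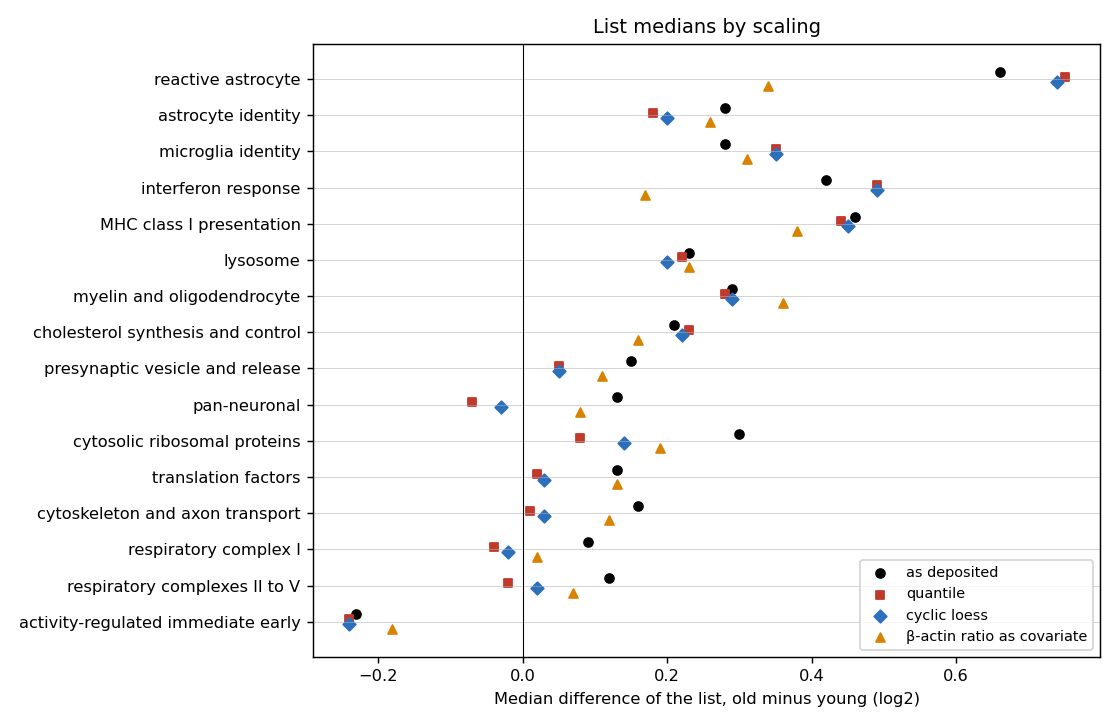
Median difference between old and young mice (log2) of 16 gene lists in the signals as deposited, after quantile normalization, after cyclic loess normalization and with the β-actin 3′/5′ ratio as a covariate. The vertical line marks 0. Medians of ribosomal, cytoskeletal, respiratory and general neuronal lists moved toward 0 or past it after normalization, from 0.30 to 0.08 for ribosomal proteins with quantile normalization. Those of reactive astrocyte, microglia, interferon and immediate early genes did not move toward 0 after normalization. With the covariate the median went from 0.66 to 0.34 for reactive astrocyte, from 0.42 to 0.17 for interferon and from 0.30 to 0.19 for ribosomal protein genes.

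Of 52 genes of lipoproteins, lipid droplets and fatty acids 14 rose and 3 fell (9 and 1 in all 12 fits), with a median of 0.06. Osbpl5, which exchanges phosphatidylserine and phosphoinositides at membrane contacts, read 73.5, 72.2, 56.6, 65.9 and 46.1 in young and 365, 238, 240.4, 291 and 351 in old mice. All old mice were several times above all young mice (1.98 ± 0.22, adjusted p = 6.13e-06), from a dim level in the young mice. Acox2, a peroxisomal oxidase of branched fatty acids and bile acid precursors, fell from 421 ± 62.4 to 181 ± 92.1 (−1.25 ± 0.31). In cholesterol synthesis and its control 8 of 27 genes rose (7 in all 12 fits) and none fell, with a median of 0.21. Insig1, which holds the sterol sensor in the endoplasmic reticulum, went from 969 ± 139 to 1831 ± 452 (0.88 ± 0.15), Mvd, an enzyme of the mevalonate branch, rose by 0.48 ± 0.09 and Tm7sf2, a sterol reductase, by 0.54 ± 0.12. The probe set of Mvd is marked for cross-hybridisation and its call was lost on the unmarked one. Among sphingolipid enzymes B4galnt1, which starts the complex gangliosides, rose from 1241 ± 204 to 2354 ± 289 (0.92 ± 0.12, adjusted p = 4.84e-05) and St8sia1, which adds a further sialic acid, by 0.81 ± 0.18. For B4galnt1 1 of 2 and for St8sia1 2 of 3 probe sets went this way, and both calls were lost with the mean of all probe sets. Cers6, a ceramide synthase, fell (−0.32 ± 0.07).

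Genes of protein quality control went in both directions. Of 42 heat shock and chaperone genes 11 rose and 5 fell (5 and 4 in all 12 fits). Stip1, which links both large cytosolic chaperones, rose by 0.50 ± 0.09 and Hspa2, a constitutive member of the Hsp70 family, by 0.54 ± 0.11. Hspa1b, the stress-inducible member, read 4087, 4312, 4703, 5802 and 6525 in young and 3335, 2774, 5038, 2693 and 2989.8 in old mice, and fell (−0.61 ± 0.17, adjusted p = 0.0116) with old mouse 3 inside the young range. Its close copy Hspa1a had a difference of −0.30 ± 0.12 (adjusted p = 0.079), and these copies can share signal. Of 36 genes of endoplasmic reticulum stress 3 rose and 5 fell (2 and 2 in all 12 fits), with 3 falls without young mouse 1 or 4 or old mouse 2, 3 or 5. These were 8.33% and 13.9%, against 12.4% and 10.4% of all genes. Herpud1, which aids degradation of misfolded proteins, fell (−0.43 ± 0.10) and so did Dnajb11, a chaperone of the same compartment (−0.43 ± 0.11), while Hspa5, the main sensor chaperone there, had a difference of −0.04 ± 0.13 (adjusted p = 0.856). In the proteasome 4 of 37 subunits rose and 3 fell (3 and 2 in all 12 fits), with Psmb3 higher by 0.62 ± 0.12 and Psma4 lower (−0.50 ± 0.10). The proteasome shares of 10.8% and 8.11% were near the 12.4% and 10.4% of all genes. Ambra1, a regulator of autophagy onset, rose from 864 ± 171 to 1625 ± 103 (0.92 ± 0.13), Pink1, the kinase that marks damaged mitochondria, by 0.43 ± 0.09, and Atg14 fell (−0.38 ± 0.07). For Ambra1 1 of 3 probe sets went this way, and its call was lost with the mean of all. Of 42 autophagy genes 12 rose and 3 fell (5 and 1 in all 12 fits), and 6 rose and 4 fell after quantile normalization.

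Genes of nuclear processes were called in both directions. Of 66 splicing regulators 11 rose and 7 fell (8 and 5 in all 12 fits), and after quantile normalization 8 rose and 14 fell. The 11 and 7 were 16.7% and 10.6%, against 12.4% and 10.4% of all genes. Hnrnpul1 rose by 0.63 ± 0.12 and Rbfox2, a neuronal splicing factor, by 0.59 ± 0.10. Tardbp, which encodes TDP-43, fell (−0.30 ± 0.08) on all 5 probe sets, and Cirbp, the cold-inducible RNA-binding protein, from 3415 ± 460.2 to 2451 ± 639 (−0.52 ± 0.15). The calls of Rbfox2 and Tardbp were lost with the mean of all probe sets. Of 65 chromatin genes 6 rose and 7 fell (3 and 1 in all 12 fits), of 45 DNA repair genes 3 rose and 6 fell (1 and 3), and of 39 p53 targets and cell cycle inhibitors 4 rose and 7 fell (3 and 3). The shares were 9.23% and 10.8%, 6.67% and 13.3%, and 10.3% and 17.9%, against 12.4% and 10.4% of all genes. Without young mouse 2 or old mouse 4 or 5 there were 4 falls of chromatin genes. For p53 targets there were 3 falls without young mouse 3 or 4 or old mouse 5 and 4 without young mouse 5 or old mouse 1. Parp1, which signals DNA breaks, fell (−0.34 ± 0.07, with the call lost with the mean of its 4 probe sets) and Apex2, a nuclease of base repair, from 399 ± 86.5 to 237 ± 65.1 (−0.72 ± 0.17). Cdkn1a, the inhibitor that marks many senescent cells, had 1277 ± 285 and 1295 ± 269 (difference 0.02 ± 0.16, adjusted p = 0.928), and Cdkn1b fell (−0.38 ± 0.09). In the circadian clock Npas2 rose from 569 ± 52.5 to 925 ± 109 (0.68 ± 0.11) and its dimer partner Arntl fell from 2446 ± 199.8 to 1872 ± 369 (−0.40 ± 0.11), and Usp2, a rhythmic ubiquitin protease, rose by 0.53 ± 0.07. The labels used here give no hour of death. Per2 had a difference of −0.31 ± 0.13 (adjusted p = 0.0879) and Nr1d1 of 0.16 ± 0.18 (adjusted p = 0.564). Per2 was called in the fit of the 10 control arrays and with the mean of its 3 probe sets.

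Antioxidant genes rose in 10 of 55 cases and fell in 2 (8 and 2 in all 12 fits). Mgst3, a glutathione transferase of membranes, read 3828, 2717, 3009.8, 3109 and 2075 in young and 5295, 4487, 6050.0, 6155 and 6306 in old mice. The ranges of the groups were separate (0.95 ± 0.13, adjusted p = 7.16e-05), and the call was lost with the mean of its 2 probe sets. Selenow, a small selenoprotein, rose by 0.60 ± 0.10 on a probe set marked for cross-hybridisation, and Gclc, the limiting enzyme of glutathione synthesis, fell (−0.32 ± 0.07). Sod1, the cytosolic superoxide dismutase, rose by 0.40 ± 0.08 but lost its call after quantile normalization and turned in sign with the mean of its 5 probe sets, Sod2 had a difference of 0.23 ± 0.09 (adjusted p = 0.0508) and Cat, catalase, of 0.00 ± 0.12 (adjusted p = 0.99). Among genes of iron and other metals 6 of 30 rose and 5 fell (2 and 2 in all 12 fits), with 2 or 3 falls without young mouse 1, 2, 3 or 5 or old mouse 1, 4 or 5. Cp, the ferroxidase ceruloplasmin, rose from 458 ± 84.0 to 991 ± 749 (0.87 ± 0.26, adjusted p = 0.0181), with its call lost in the fit of the 10 control arrays, with the mean of its 8 probe sets and with the β-actin covariate. Iscu, the scaffold for iron-sulphur clusters, fell from 12518 ± 1306 to 8656 ± 295 (−0.53 ± 0.09) and Hamp, hepcidin, fell from 447 ± 73.8 to 304 ± 54.0 (−0.54 ± 0.14). The probe set of Hamp is marked for cross-hybridisation. Of 42 insulin, growth factor, mTOR and sirtuin genes 10 rose and 2 fell (5 and 1 in all 12 fits, and 5 or 6 rises without young mouse 2 or 3 or old mouse 4 or 5), with Igfbp6 higher by 0.53 ± 0.09 and Sirt6 by 0.61 ± 0.12. Of 57 genes of TGF-β, BMP and Wnt signalling 3 rose and 3 fell (2 and 0 in all 12 fits), which is 5.26% each, against 12.4% and 10.4% of all genes.

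Vascular and border cell genes were called in both directions. Of 22 endothelial and barrier genes 4 rose and 2 fell (4 and 0 in all 12 fits). These were 18.2% and 9.09%, against 12.4% and 10.4% of all genes. Eng, a co-receptor of TGF-β on vessels, rose from 666 ± 98.4 to 1106 ± 91.6 (0.73 ± 0.11), Slc2a1, the glucose transporter of the barrier, from 2581 ± 305 to 3967 ± 199 (0.62 ± 0.12) and Bsg, which carries transporters to the membrane, by 0.50 ± 0.09. Cldn5, the main claudin of barrier tight junctions, fell (−0.34 ± 0.11) and lost its call in each fit without young mouse 1 or 2 or old mouse 4 or 5 (adjusted p from 0.0566 to 0.0928). Of 27 collagens and collagen enzymes none rose and 4 fell (2 in all 12 fits, and 2 without young mouse 3, old mouse 2 or old mouse 4), with a median of −0.14. Col11a1 fell (−0.61 ± 0.12) and so did Col5a1 (−0.41 ± 0.12), and Col1a1, of the fibril-forming collagen of meninges, had a difference of 0.27 ± 0.17 (adjusted p = 0.267). In the choroid plexus list 2 of 12 genes fell (0 in all 12 fits), with a median of −0.35. There were 5 falls without old mouse 2, 3 without old mouse 5 and 0 without young mouse 1 or 2 or old mouse 1. Ttr varied as given above, and it was called after both normalizations and in each fit without old mouse 2 or 5. Kl, which encodes klotho, read 338, 437, 212, 378 and 345 in young and 89.0, 547, 65.1, 103 and 227 in old mice, with overlap (−1.05 ± 0.36), and its call was lost after both normalizations, in the fit of the 10 control arrays and in each fit without young mouse 1, 2, 4 or 5 or old mouse 1, 3 or 4 (adjusted p from 0.0643 to 0.121). Vtn, vitronectin of pericytes and liver, rose from 1924 ± 351 to 2965 ± 137 (0.64 ± 0.11). Zic1, a factor of meninges, thalamus and cerebellar granule cells, fell from 2582 ± 345 to 1559 ± 453 (−0.76 ± 0.18, with the call lost with the mean of its 2 probe sets), and Ppp1r1b, which marks striatum, had a difference of −0.01 ± 0.08 (adjusted p = 0.966). Of 10 thalamus and hypothalamus genes 2 fell (0 in all 12 fits) and none rose, with a median of −0.43. After each of both normalizations 1 fell, and the median was −0.36. Of 12 striatum genes none was called, with a median of 0.01. The part of adhering membranes or neighbouring regions in these results was not tested.

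Other genes came from the rule on the lowest p-values and largest differences and not from a pathway. Rgs19, which shortens signalling of inhibitory G proteins, read 1977, 1836, 1803, 1843 and 1886 in young and 1008, 1224, 982, 1011 and 1163 in old mice. The groups did not overlap, and the difference was −0.79 ± 0.08 (adjusted p = 2.34e-06). Eny2, a subunit shared by histone deubiquitination and messenger export, fell from 4093 ± 108 to 2722 ± 74.5 (−0.59 ± 0.08) on all 6 probe sets. Mirg, a noncoding RNA that hosts microRNAs in an imprinted cluster, fell from 4894 ± 503 to 2921 ± 354 (−0.74 ± 0.08, adjusted p = 5.71e-06). Hif1a, the oxygen-regulated factor, went from 3924, 3423, 3865, 3469 and 4091 in young to 2252, 2478, 2604, 2639.6 and 2131 in old mice. There was no overlap between the groups (−0.63 ± 0.09), and 3 of 4 probe sets fell, with the call lost with the mean of all. Plcxd3, of the phospholipase C family, fell (−0.93 ± 0.13) and so did Rnf128, a ubiquitin ligase first known from anergic T cells (−0.60 ± 0.09). Among the rises Tgm2, the tissue transglutaminase that crosslinks proteins, went from 356 ± 78.7 to 1146 ± 828 (1.45 ± 0.27). All 6 of its probe sets rose, and the brightest, read here, is marked for cross-hybridisation. Rabgef1, an exchange factor of early endosomes, rose by 1.19 ± 0.18 and Zdhhc1, a palmitoyl transferase, by 1.30 ± 0.30 on a probe set marked for cross-hybridisation. Ufm1, a ubiquitin-like modifier, rose by 1.27 ± 0.14, but 3 of its 5 probe sets went the other way and its call was lost with the mean of all.

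The largest fall was that of Epcam. Epcam, an epithelial adhesion molecule, read 2769, 3310.1, 5530.4, 6566 and 3769.7 in young and 2338, 1299, 425, 624 and 452 in old mice. No old mouse reached the range of the young mice, and the difference was −2.32 ± 0.45, but the probe set is marked for cross-hybridisation and the other one did not fall. Prrx1, a factor of mesenchymal cells, fell from 349.5 ± 69.6 to 138 ± 83.1 (−1.45 ± 0.33), Hmcn1, a large matrix protein, from 326 ± 22.7 to 149 ± 69.9 (−1.19 ± 0.25) and Zfhx3, a factor of neuronal maturation and circadian control, from 572 ± 137 to 254 ± 78.7 (−1.15 ± 0.24). Tspan32 fell from 486 ± 177 to 177 ± 17.3 (−1.30 ± 0.35), and the means of the other 30-month-old groups were 409 and 575. Myoz1, a protein of muscle Z discs, fell from 899 ± 157 to 339 ± 132 (−1.46 ± 0.24) and Il4i1, an amino acid oxidase of immune cells, from 898 ± 152 to 413 ± 130.1 (−1.13 ± 0.21). The calls of Prrx1, Tspan32 and Myoz1 were lost with the mean of all their probe sets. Ercc2, a helicase of DNA repair and transcription, fell (−0.99 ± 0.25), while the mean over its 2 probe sets went up.

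The spread between mice was compared between the groups. The mean absolute log2 distance of a mouse from the mean of the other 4 of its group, over all genes, was 0.170 ± 0.013 in young and 0.193 ± 0.029 in old mice (exact two-sided permutation test, p = 0.143). Leaving out 1 mouse set the rest of its group against means of 3 mice and the other group still against means of 4. A mean of fewer mice is less steady, which by itself raises the distances of the shortened group. The values without 1 mouse are therefore not on the same measure as the main one. The difference of 0.02255 became 0.0404 without old mouse 4 (exact p = 0.00794), 0.0346 without old mouse 2 (exact p = 0.0397) and 0.0309 without old mouse 1 (exact p = 0.0317). It shrank to 0.0113 without old mouse 3 (exact p = 0.333) and 0.01125 without young mouse 2 (exact p = 0.595). After quantile normalization it was 0.0137 (exact p = 0.421). Every other comparison without 1 mouse gave an exact p of at least 0.0794. Old mouse 3 had the highest value at 0.239, old mouse 4 a low one at 0.160, and the other 3 lay between 0.179 and 0.193. The median coefficient of variation of a gene was 10.2% in young and 11.6% in old mice, and it was larger in old mice for 58.7% of genes. Correlations between 2 mice of a group over all genes ranged from 0.977 to 0.984 in young and from 0.969 to 0.984 in old mice, which describes the arrays and is across genes that are not independent.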

How the data were processed

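Affymetrix arrays measured poly(A) RNA purified from frozen neocortex, with 1 array for each of 20 mice. The values are intensity signals that the authors deposited in the series' value table. The submitters' processing notes name GCOS, without its settings. The deposited signals of each array had a 2% trimmed mean of 1000. Samples were grouped by title. Of 45037 probe sets other than 64 array controls, 34945 carried 1 gene symbol in the platform annotation, 932 several and 9160 none. Symbols were updated through RefSeq for 34741. The 60% of probe sets with the highest mean signal were kept (limit 184.4), and each gene was read on its brightest probe set.

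Signals were taken as log2(signal + 16) and fitted in limma 3.58.1 (R 4.3.3) with all 4 groups, eBayes with a trend, and Benjamini-Hochberg adjustment over 13351 genes at a threshold of 0.05. The fit was tested on simulated data. Array measures and distances were tested with exact two-sided permutation tests. The number of arrays limits the precision. Sample numbers were not taken to pair mice: deviations of same-numbered young and old mice correlated between −0.12 and 0.09.

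Named genes were the 20 largest rises and 20 largest falls among calls without overlap, the 10 lowest p in each direction, up to 4 called members per list and direction, and key members as values, of which some were left out. Xist and 3 Y-linked genes were chosen after their values were seen. Members and gene lists were chosen with earlier results of these data known. Promoters came from the RefSeq table of GRCm38.p6. The alternatives tried were other pseudocounts, filters, normalizations, array weights, probe set rules, a β-actin covariate, a sample-number block, a fit of the 10 control arrays and leaving out each mouse.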

Additional observations from a re-analysis of the deposited data

Results flagged for a closer look

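A mouse was examined more closely where its gap to the nearest of the other 4 mice of its group, divided by the range of the group, was above 0.71. Of 428 groups of 5 values (genes named in the text, array measures and distances) 31 met this, which is 7.24%, and chance gives about 1 in 20. Old mouse 3 accounted for 10 of the 31 and young mouse 5 for 5.

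Old mouse 3 was highest in its group for Ifitm3 (9178.4), B2m (10028.1), Fau (19685.5), Cers6 (1659.9) and Gadd45g (1308.1), and lowest for Junb (1673.5), Cat (1430.2), Cirbp (1359.5) and Kdm5d (515.7). Its median array signal of 313.3 was the highest of the old mice, against 290.5 for the nearest. Over all genes tested old mouse 3 stood apart in 350, young mouse 5 in 239 and old mouse 4 in 65, and the rule was met by 5.80% of young and 6.19% of old groups. Without old mouse 3 there were 2779 calls.

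Old mouse 5 was highest for Xist (11558.3) and Ufm1 (2398.5) and lowest for Sod2 (5659.9). Old mouse 2 was highest for Psma4 (8497.3) and Mrpl18 (1909.7) and lowest for Cdkn1b (1382.4), and old mouse 4 was highest for Clasp2 (11057.9). Among young mice, mouse 5 was highest for Psap (36168.4) and lowest for Paip2 (7184.6), Junb (3596.8), Plcxd3 (1240.7) and Pfn1 (581.1). Young mouse 4 was highest for Pam (668.3) and Hamp (575.3) and lowest for Marcks (6010.9) and P2ry12 (1279.3). Young mouse 3 was highest for Ifitm3 (1838.0) and St8sia1 (1103.5) and lowest for Eif2s3y (1962.2). Young mouse 1 was highest for Ndufv1 (8853.9) and lowest for Tardbp (5127.9). The causes were not tested.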

How the results depend on the processing

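The count of 3039 calls (1656 higher, 1383 lower) stayed within 1.5 times under the other pseudocounts, filters, normalizations and weights. It moved with the β-actin 3′/5′ ratio as a covariate (1158 calls, 634 higher and 524 lower), with each probe set as a test of its own (5097, of 27022, with 2520 higher and 2577 lower), with array medians set equal (3116 higher, 431 lower) and, for rises, with the mean of all probe sets of a gene (969 higher, 1107 lower). Leaving out 1 mouse gave between 2398 calls (without young mouse 2) and 2806 (without old mouse 1), with 1359 to 1616 higher and 1039 to 1274 lower. With the sample number as a replicate block 3269 genes were called, and 2 of 5 young mice correlated best with the old mouse of their own number.

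The difference in the Gapdh ratio (0.0832, old minus young) ranged from 0.0717 to 0.1024 without 1 mouse, and in 6 of these 10 comparisons the exact p was 0.0556 or 0.0635. The difference in distance between mice ranged from 0.01125 without young mouse 2 to 0.0404 without old mouse 4. In these comparisons the group that lost a mouse was measured against means of fewer mice than the other.

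Of 176 called genes named, 162 kept their calls after both normalizations and without each mouse. Calls were lost with the direction kept for 36 with the β-actin covariate, 26 with the mean of all probe sets, 25 with array medians set equal and 6 with the brightest unmarked probe set. Signs turned with the mean of all probe sets for Eif3l (−0.0386), Ercc2 (0.19), Ighm (−0.18), Rbfox3 (−0.0849), Rps3 (−0.11), Sdha (−0.25) and Sod1 (−0.0226), with the brightest unmarked probe set for Grn (−0.0125) and Igfbp5 (−0.15), and with quantile normalization for Psap (−0.0482). Of 33 named genes that were not called, 2 were called after each of both normalizations, Gad1 and Ttr. The fit of the 10 control arrays called 3 of them, Arc, Per2 and Sod2. Equal array medians also called 3, Camk2a, Nefl and Sod2. A fit without 1 mouse called at most 4 of them, the number without old mouse 1. The causes of these changes were not tested.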
